A study of Mus musculus with 6 samples.

Results

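Retinoic acid is made from vitamin A inside embryonic tissues, acts through nuclear receptors and is cleared by dedicated enzymes, and the genes described here cover that route: its synthesis (Rdh10, Aldh1a1 and Aldh1a2) and the reverse step from retinaldehyde to retinol (Dhrs3), binding in the cytoplasm (Crabp1), breakdown (Cyp26a1 and Cyp26b1) and the retinoic acid receptors (Rara, Rarb and Rarg). They were taken as all probe sets whose platform annotation names only that gene, which gave 12 probe sets for 10 of the 18193 genes measured. Of these genes, 8 had 1 probe set, and Rdh10 and Rarg had 2. The data are 6 Affymetrix arrays of total RNA from mouse embryos at embryonic day 9, 3 wild type and 3 mutant. In both groups, cells that expressed yellow fluorescent protein and marked the Isl1-Cre domain were sorted as cardiac progenitors. The mutant embryos are described as carrying Isl1-cre, Rosa-YFP and a Beta-catenin (loxP ex3) allele, whose recombination yields a stable form of β-catenin, the nuclear effector of canonical Wnt signalling. For the wild-type embryos the labels name no alleles beyond the sorted fluorescence, and neither the litters nor the number of embryos per array are given. Isl1-Cre acts wherever Isl1 has been on, so the sorted cells can include derivatives outside the heart. The labels do not say whether each array came from separate embryos, so a p-value is read here only as a measure of the spread between these arrays.

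In the embryo, Rdh10 oxidises retinol to retinaldehyde and Dhrs3 reduces it back. Aldh1a2 converts retinaldehyde to retinoic acid and is the main source of the hormone in trunk mesoderm, somites and the posterior heart field, while Cyp26 enzymes degrade it and so set the anterior limit of its action. The receptors bind DNA as pairs with retinoid X receptors, often at a direct repeat of a hexamer with a spacer of 5 bases (DR5), and Rarb and Cyp26a1 are classic direct targets. Retinoic acid sets the posterior border of the second heart field and the expression of anterior Hox genes.

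The DR5 element is shown because it is the textbook element through which this receptor gene and this breakdown enzyme respond to retinoic acid. Promoters from RefSeq (GRCm38.p6, 250 bases before to 50 after each annotated start) were matched by symbol for 9 of the 10 genes, as 16 windows. A DR5 was taken as AGGTCA or AGTTCA or GGGTCA or GGTTCA, then NNNNN, then again 1 of the same 4 hexamers, on either strand. It was found for Rarb and Cyp26a1, and for 31 of 27025 genes overall (0.115%). The same hexamers spaced by NN (DR2) were found in none of the windows of these genes and for 0.311% of all genes, and no other motif was searched. In the lines that follow, capitals mark the DR5 and the lower case letters its flanks before the start. Rarb lies at chr14:16575493-16575549 on the minus strand, with the element 53 to 37 bases before the start. Cyp26a1 lies at chr19:37697756-37697807 on the plus strand, with the element 32 to 16 bases before the start and the repeat read on the opposite strand as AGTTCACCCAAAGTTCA.
Rarb: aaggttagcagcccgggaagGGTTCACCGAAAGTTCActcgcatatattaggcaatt
Cyp26a1: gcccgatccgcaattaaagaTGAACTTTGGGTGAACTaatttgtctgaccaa
A match of letters is a description of the window, and says nothing on whether a receptor was bound in these cells.

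The groups did not overlap on the first principal component, but mutant array 1 stood apart from the other mutant arrays. Wild-type arrays lay between −21.6 and −20.5 and mutant arrays 2 and 3 at 33.0 and 29.4, while mutant array 1 lay at 1.21. Sex-linked transcripts were uneven. On arrays 1, 2 and 3, Y-linked Kdm5d read 9.84, 2.82 and 3.52 in wild type and 8.67, 9.92 and 9.08 in mutant cells. Xist, a transcript of female cells, read 5.46, 12.63 and 12.79 in wild type and 12.13, 7.54 and 12.44 in mutant cells. Wild-type array 1 thus had a male pattern and wild-type arrays 2 and 3 a female one, while mutant arrays 1 and 3 were high in both transcripts. The part of sex in the values below was not tested. Of 16 measured second heart field markers, 1 (Nkx2-5) stood at or below a background level of 4.85, taken from bacterial control probe sets, in both groups. Canonical Wnt targets had higher values for 12 of 12 genes, beside 44.7% of all genes. Their mean level was 7.43 to 7.51 on wild-type and 8.14 to 8.41 on mutant arrays. That list was chosen with earlier results of these data known, so it is no independent check of the mutant label. In these bulk samples, fewer cells of a type and less RNA per cell cannot be told apart.

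None of the 10 retinoid genes differed between mutant and wild-type cells by the test across all genes. In limma with Benjamini-Hochberg adjustment, 0 of the 10 passed, with adjusted p from 0.316 (Rdh10) to 0.973 (Rara), where 0.066% of all genes passed (12, all higher). Of the 12 probe sets 0 passed over all probe sets, where 0.0229% did. At an unadjusted p under 0.05 the count was 1 of 10 higher, beside 6.76% of all genes, and 0 lower, beside 4.84%, or 11.6% in either direction. Values were higher in the mutant for 8 and lower for 2 genes, with a median difference (mutant minus wild type) of 0.23 log2 units. Over all genes, 44.7% had higher values and the median was −0.03. With an array left out, the count of higher values ran from 6 (without mutant array 2) to 10 (without mutant array 1) and the median from 0.15 (without mutant array 2) to 0.41 (without wild-type array 3). Of the 10 genes 1 had groups that did not overlap, Rdh10, which was higher in the mutant. Such a separation with higher mutant values was found for 8.64% of all genes, and one in either direction for 17.8%. The intervals leave room for changes of some size: the 95% confidence interval of the difference reached 2.28 at its upper end for Cyp26b1 and −2.25 at its lower end for Aldh1a2.

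**Figure D1:**
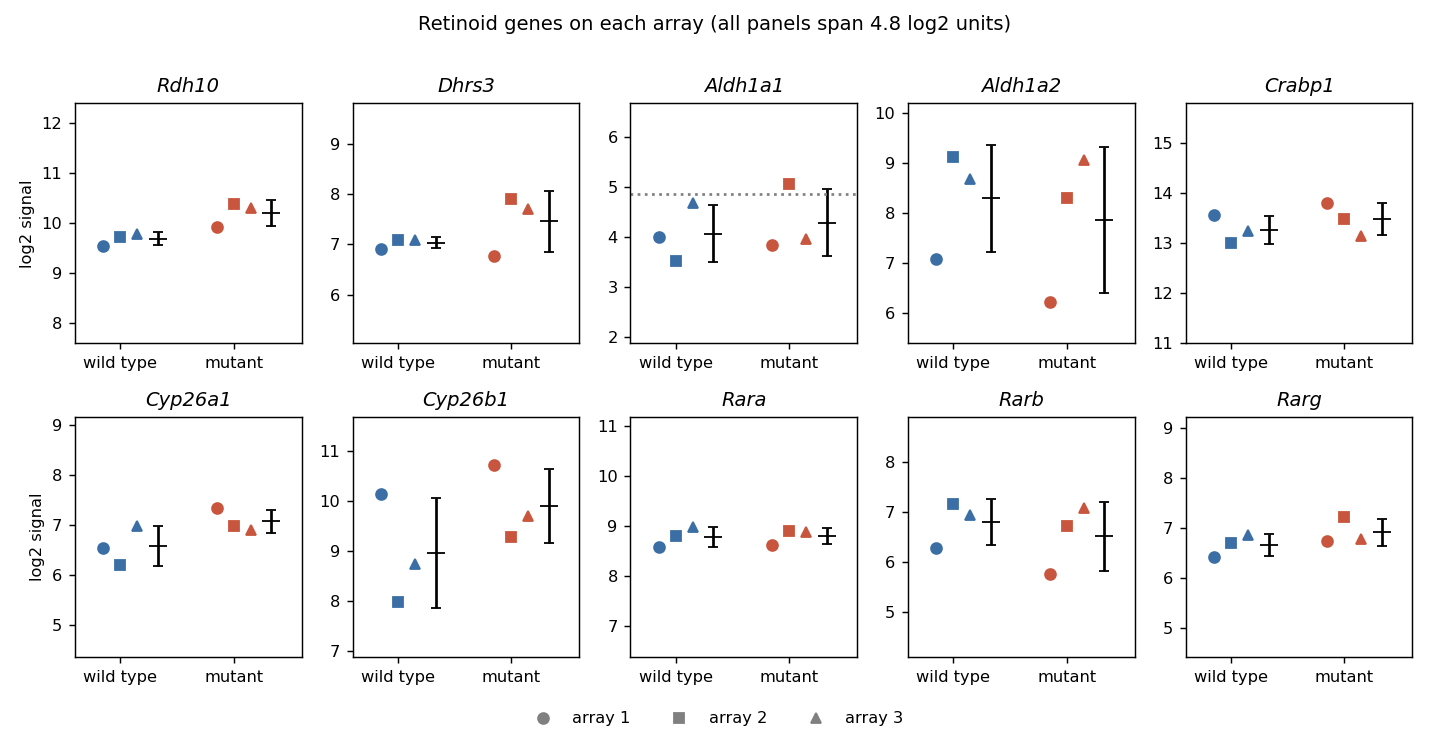
Log2 signal of the 10 retinoid genes on each of the 6 arrays (circle, square and triangle: arrays 1, 2 and 3 of a group), with the group mean and SD (n = 3) as a bar. Every panel spans the same number of log2 units. The groups separate for Rdh10 only, and Aldh1a2, Cyp26b1 and Rarb differ more among arrays of a group than between groups. The dotted line in the Aldh1a1 panel is the background level, 4.85.

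Among the enzymes that handle retinaldehyde, Rdh10 had the smallest p of the 10 genes. Wild-type cells read 9.53, 9.72 and 9.79 (log2 signal, in the order of arrays 1, 2 and 3, as for every gene that follows), and mutant cells 9.91, 10.38 and 10.30. All 3 mutant values lay above all wild-type values. The difference was 0.52 (SE 0.16, 95% confidence interval 0.14 to 0.89), a 1.43-fold higher level, with an unadjusted p of 0.0141 and an adjusted p of 0.316, so it did not pass. The other Rdh10 probe set read 6.98, 7.62 and 7.53 in wild type and 7.67, 7.90 and 7.62 in mutant cells. Its groups overlapped, since mutant array 3 lay just below wild-type array 2, and its difference was 0.35 (adjusted p = 0.528 over all probe sets).

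Dhrs3, which turns retinaldehyde back to retinol and is itself known to be induced by retinoic acid, differed among the mutant arrays. It read 6.91, 7.10 and 7.09 in wild type and 6.77, 7.91 and 7.72 in mutant cells. Mutant arrays 2 and 3 lay above every wild-type array and mutant array 1 below them all. The difference over all arrays was 0.43 (SE 0.28, adjusted p = 0.578). Without mutant array 1 it was 0.78 (adjusted p = 0.107), the smallest adjusted p of the 10 genes in that fit.

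Aldh1a2, the main retinaldehyde dehydrogenase of embryonic mesoderm, varied far more between arrays of a group than between the groups. Wild-type cells read 7.09, 9.12 and 8.69, and mutant cells 6.22, 8.30 and 9.05. The lowest array of each group was array 1, and the groups overlapped over most of their range. Group means were 8.30 ± 1.07 in wild type and 7.86 ± 1.47 in mutant cells (SD, n = 3), a difference of −0.44 (SE 0.78, 95% confidence interval −2.25 to 1.37, adjusted p = 0.848). Without mutant array 1 the difference turned to 0.38 (adjusted p = 0.809). Aldh1a1, a related dehydrogenase, read 4.002, 3.52 and 4.66 in wild type and 3.83, 5.05 and 3.96 in mutant cells. Its group means lay at or below background, so its difference of 0.22 is not a measured change.

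Crabp1, a cytoplasmic retinoic acid binding protein of neural crest and hindbrain, read 13.56, 13.00 and 13.23 in wild type and 13.79, 13.49 and 13.15 in mutant cells. The groups overlapped, and array 1 was the highest of each. The difference was 0.21 (SE 0.21, 95% confidence interval −0.28 to 0.70, adjusted p = 0.712), and it was 0.05 without mutant array 1 and 0.08 without wild-type array 2. Neural crest markers had a mean level of 8.61 to 9.001 on wild-type and 8.92 to 9.29 on mutant arrays, and 10 of 15 had higher values in the mutant. Their part in the Crabp1 values was not tested.

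The breakdown enzymes both had higher means in the mutant without passing the test. Cyp26a1, the retinoic acid hydroxylase with a DR5 in the window shown above, read 6.55, 6.21 and 6.99 in wild type and 7.34, 6.98 and 6.90 in mutant cells. Wild-type array 3 lay above mutant arrays 2 and 3 by a small margin, and the other wild-type arrays below them all. The difference was 0.49 (SE 0.22, 95% confidence interval −0.03 to 1.01, adjusted p = 0.453). It was 0.30 without wild-type array 2 and 0.70 without wild-type array 3. Cyp26b1, a second hydroxylase with its own embryonic domains, read 10.16, 7.98 and 8.75 in wild type and 10.72, 9.28 and 9.72 in mutant cells. Array 1 was the highest of each group, and wild-type array 1 exceeded mutant arrays 2 and 3. The difference was 0.94 (SE 0.57, 95% confidence interval −0.39 to 2.28, adjusted p = 0.550), the highest of the 10 genes, and it was 0.45 without wild-type array 2, 0.54 without mutant array 1 and 1.54 without wild-type array 1.

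The receptors differed little between groups. Rara, the broadly expressed receptor, read 8.59, 8.80 and 8.98 in wild type and 8.62, 8.92 and 8.89 in mutant cells, a difference of 0.02 (SE 0.15, 95% confidence interval −0.34 to 0.37, adjusted p = 0.973). Rarg read 6.42, 6.71 and 6.86 in wild type and 6.73, 7.23 and 6.78 in mutant cells, with overlap and a difference of 0.25 (adjusted p = 0.616). Its other probe set gave 0.29 (adjusted p = 0.557 over all probe sets), and the first gave 0.10 without mutant array 2 and 0.13 without wild-type array 1. Rarb, the receptor whose promoter holds a DR5, read 6.29, 7.17 and 6.95 in wild type and 5.76, 6.73 and 7.09 in mutant cells. Array 1 was the lowest of each group, as for Aldh1a2. The Rarb difference was −0.28 (SE 0.37, 95% confidence interval −1.14 to 0.58, adjusted p = 0.789), and 0.10 without mutant array 1.

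Across the 6 arrays, Rarb followed Aldh1a2 and Crabp1 ran opposite to it. The order of the arrays from low to high was mutant 1, wild type 1, mutant 2, wild type 3, mutant 3 and wild type 2 for both Aldh1a2 and Rarb, and exactly the reverse for Crabp1. For Aldh1a2 and Rarb, Pearson's r was 0.996 (exact permutation p = 0.00139, the smallest that 720 arrangements can give) and Spearman's rho 1 (exact permutation p = 0.00278, the smallest possible, two-sided). For Aldh1a2 and Crabp1, r was −0.945 and rho −1, and for Rarb and Crabp1 r was −0.958 and rho −1, with the same exact permutation p-values. All 45 pairs of the 10 genes were computed, after the array values had been seen. These 3 pairs alone passed Benjamini-Hochberg adjustment over the 45 (adjusted p = 0.0208 for r and 0.0417 for rho, exact permutation). The rho of −1 for Rarb and Crabp1 follows from the rho of each with Aldh1a2. It was still counted in the adjustment for rho, and rho passed only because this pair, fixed by the others, was counted. The 3 pairs are therefore not separate results.

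Wild-type array 1 and mutant array 1 were the 2 arrays farthest from the median of Aldh1a2. Without them, r over the other 4 arrays was 0.993 for Rarb and −0.967 for Crabp1. The rank order over those 4 was already fixed by that over all arrays, so this is no separate check. Over all genes, 19 of 18192 (0.104%) had the same order as Aldh1a2, Rarb among them, and 17 (0.0934%) the opposite order, Crabp1 among them. Of the genes with either order, 0 were in the list of retinoic acid responsive genes given below and 0 were Hox genes. Cyp26b1 also ran against Aldh1a2 (r = −0.829, rho = −0.829), but this did not pass over the 45 pairs (adjusted p = 0.219 for r, 0.328 for rho, exact permutation), and r was −0.305 without wild-type array 1 and mutant array 1. Cyp26a1, which shares the DR5 with Rarb, was in none of the pairs that passed.

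**Figure D2:**
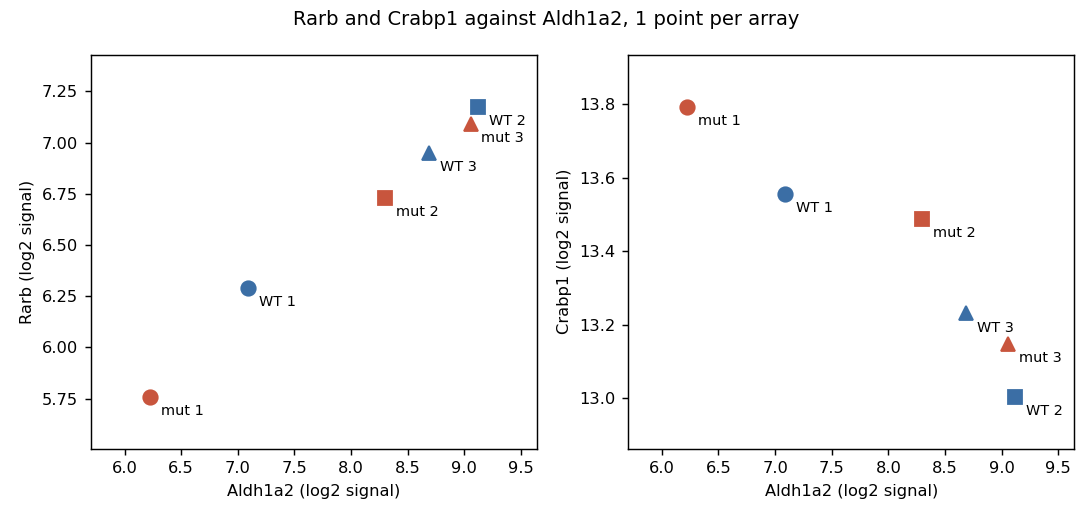
Rarb (left) and Crabp1 (right) against Aldh1a2, all as log2 signal, with 1 point for each of the 6 arrays (blue: wild type, red: mutant). From the array lowest in Aldh1a2 to the highest, Rarb goes from 5.76 to 7.17 and Crabp1 from 13.79 to 13.00, with arrays of both groups interleaved.

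The genes whose profile lay nearest to that of Aldh1a2, by root mean square distance between values centred on each gene's mean over the 6 arrays, were all Hox genes. Hoxb5, a patterning factor of the posterior hindbrain and trunk, lay at 0.230 log2 units, Hoxb6 at 0.335 and Hoxc4 at 0.340. Hoxb5 read 8.45, 10.42 and 10.43 in wild type and 8.17, 9.77 and 10.45 in mutant cells. Hoxb6 read 4.06, 6.60 and 6.07 in wild type and 4.27, 6.08 and 6.70 in mutant cells, with array 1 of each group below background. As for Aldh1a2, array 1 was the lowest of its group, wild type and mutant, in each of the 3 genes. For Cyp26a1 the nearest genes were Sct (secretin, 0.0909), Lrrn3 (0.0979) and Adgrb3 (0.115, at or below background in both groups).

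Array 1 was the lowest array of its group for some retinoid lists and not for others. It was the lowest in both groups for 6 of the 10 genes and the highest for 2 (Cyp26b1 and Crabp1), beside 13.4% and 11.7% of all genes. Among 22 measured genes known to respond to retinoic acid, it was the lowest in both groups for 12, and among 33 single Hox genes, which include 10 of those 22, for 16. Among the other supply genes it was 4 of 24 and among the other response genes 0 of 12. Aldh1a2 on array 1 minus the mean of arrays 2 and 3 was −1.82 in wild type and −2.45 in mutant cells. In wild type, array 1 was also the only array with the male pattern of Kdm5d and Xist, and the part of sex was not tested. Only 43 genes (0.236%) were at least 1 log2 unit lower on array 1 in both groups, Aldh1a2 and Hoxb5 among them.

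Lists of cell type markers varied in the share that was lowest on array 1 in both groups, which was 13.4% over all genes. Of 16 paraxial and posterior mesoderm markers, 8 were lowest on array 1 in both groups. Meox2, a somite factor, had the largest drop of that list from the mean of arrays 2 and 3 to array 1, −2.21 in wild type and −1.48 in mutant cells. It read 4.15, 6.29 and 6.42 in wild type and 4.23, 5.37 and 6.04 in mutant cells, and array 1 of each group was below background. Lfng and Dll3 were instead higher on mutant array 1, by 0.53 and 0.34, and lower on wild-type array 1, by −0.24 and −0.12. The mean level of that list ran from 6.26 to 6.77 in wild type and from 6.23 to 6.68 in mutant cells. Of 13 proepicardial markers 5 were lowest on array 1 in both groups, with list means of 6.44 to 7.19 in wild type and 6.90 to 7.55 in mutant cells. For endoderm it was 5 of 16, and 2 (Shh and Sox2) were highest on array 1 in both groups. The visceral endoderm product Afp, the most uneven of that list, read 4.08 and 2.60 on wild-type and mutant array 1 and 9.46 or more on the other 4. The count was 6 of 16 for second heart field, 5 of 17 for cardiomyocyte, 4 of 13 for surface ectoderm, 4 of 12 for Wnt targets, 2 of 15 for neural crest, 1 of 20 for neural, 1 of 12 for macrophage, and 0 of 16 for endothelial and 0 of 11 for erythroid markers. The part of these cell types in the Aldh1a2, Rarb and Crabp1 values was not tested.

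**Figure D3:**
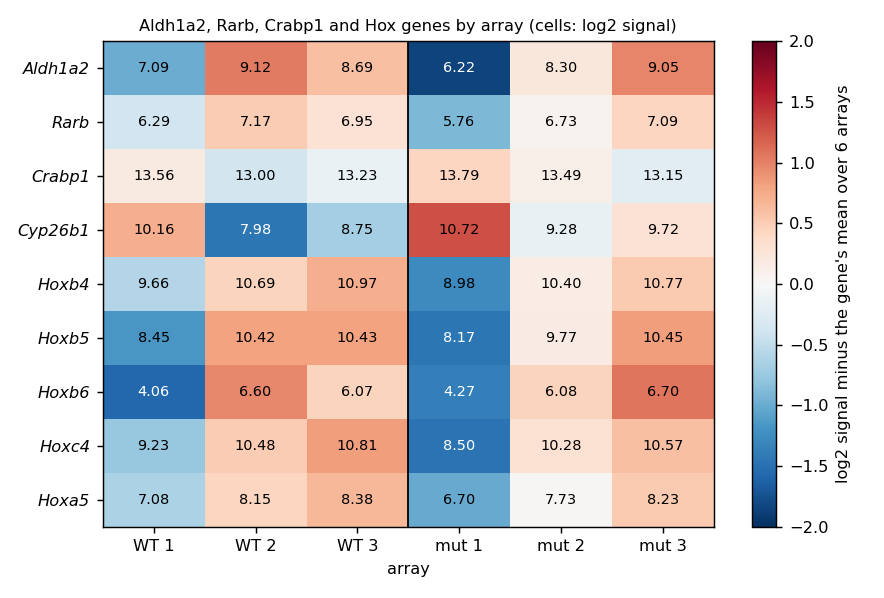
Log2 signal (numbers in cells) of Aldh1a2, Rarb, Crabp1, Cyp26b1 and 5 Hox genes on the 6 arrays, coloured by the distance from each gene's mean over all arrays. Array 1 of both groups is low for Aldh1a2, Rarb and the Hox genes and high for Crabp1 and Cyp26b1.

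Other genes of retinoid supply and response were likewise without a call. Of 27 listed supply genes 24 were measured, 13 with higher and 11 with lower values, and 0 passed after adjustment (median difference 0.08). Adh1, an alcohol dehydrogenase that clears excess retinol, read 5.52, 5.06 and 5.38 in wild type and 5.60, 6.86 and 6.20 in mutant cells. Its groups did not overlap, and its difference was 0.90 (SE 0.30, adjusted p = 0.347). The short-chain dehydrogenases Dhrs7 and Dhrs4 stood at 0.57 and −0.46, and Rdh16, at or below background, at −0.32 (adjusted p from 0.316 to 0.467). Other probe sets of Dhrs7 gave −0.17 and 0.06. Ttr, the carrier of retinol binding protein and a product of visceral endoderm, read 7.49, 10.52 and 9.66 in wild type and 4.27, 6.42 and 8.35 in mutant cells. Its difference was −2.87 (SE 1.09, adjusted p = 0.391), with overlap at mutant array 3. Ttr and Afp were each lowest on array 1 of both groups, but mutant array 2 was below every wild-type array for Ttr alone.

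Of 15 listed response genes 12 were measured, 5 higher and 7 lower, with a median of −0.01 and 0 passing. The retinoid X receptors, partners of the retinoic acid receptors on DNA, went in opposite directions. Rxrb read 9.02, 9.18 and 9.18 in wild type and 9.68, 10.12 and 9.47 in mutant cells, all mutant arrays above all wild-type arrays, a difference of 0.63 (SE 0.18, adjusted p = 0.288). Rxra read 8.71, 8.81 and 8.83 in wild type and 8.50, 8.07 and 8.34 in mutant cells, all mutant arrays below, a difference of −0.48 (SE 0.14, adjusted p = 0.300). Other Rxra probe sets gave −0.12 and −0.08. Rxrg stood at −0.27, the coregulator Nrip1 at 0.25 and Crabp2, a binding protein that delivers retinoic acid to the nucleus, at −0.23 (adjusted p from 0.521 to 0.550).

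Of 26 listed retinoic acid responsive genes 22 were measured, 7 higher and 15 lower, with a median of −0.26 and 0 passing. At an unadjusted p under 0.05 in limma there was 1 higher and 1 lower gene of the 22, beside 6.76% and 4.84% of all genes. Cdx1, a posterior homeobox factor that answers to Wnt signalling as well, read 4.68, 5.62 and 4.92 in wild type and 5.35, 6.42 and 6.63 in mutant cells, a difference of 1.06 (SE 0.37, adjusted p = 0.363). Foxf1, a factor of lateral and splanchnic mesoderm, stood at −1.47 (SE 0.59, adjusted p = 0.406), the cardiac factor Gata4 at −0.87, Hoxa4 at −0.91 and Meis1 at −0.29 (adjusted p from 0.453 to 0.493). Without mutant array 1, Foxf1 stood at −0.86, Gata4 at −0.49 and Hoxa4 at −0.55. Without wild-type array 3, Foxf1 stood at −0.99 and Hoxa4 at −0.60. The median of the list depended on mutant array 1: without it the median was 0.07.

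**Figure D4:**
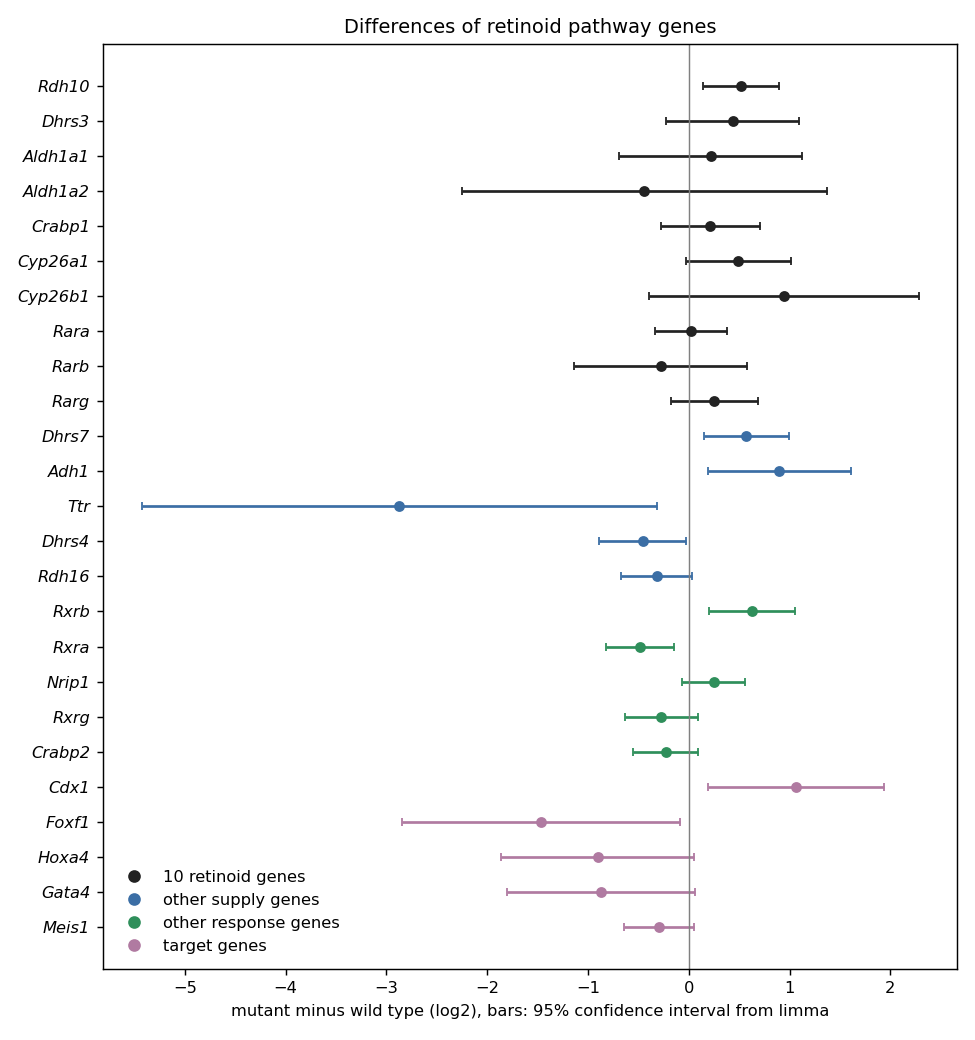
Difference between mutant and wild type (log2) with its 95% confidence interval from limma (3 against 3 arrays) for the 10 retinoid genes and, from each of the 3 further lists, the 5 genes with the smallest p. The intervals of Rdh10, Rxrb, Rxra, Dhrs7, Dhrs4, Adh1, Ttr, Cdx1 and Foxf1 exclude 0 before adjustment, and none passed over all genes.

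Levels of other cell type markers are given beside these genes, with 0 genes past the adjusted threshold in each of these lists. The mean level of 16 endothelial markers was 6.96 to 7.67 on wild-type and 7.82 to 8.17 on mutant arrays, and that of 13 surface ectoderm markers 7.55 to 7.99 and 8.03 to 8.85. The mean of 20 neural markers ran from 8.04 to 8.63 in wild type and from 7.36 to 8.26 in mutant cells, with overlap. The mean of 17 cardiomyocyte markers was 8.51 to 9.12 on wild-type and 8.33 to 8.50 on mutant arrays. For 12 macrophage markers it was 4.87 to 5.02 and 4.46 to 4.86, but 7 of these markers stood at or below background in both groups. Isl1 itself stood at −1.18 and did not pass (adjusted p = 0.269). The part of these shifts in the Rdh10, Rxrb and Rxra values was not tested.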

How the data were processed

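The authors deposited 1 table of log2 values, 1 per probe set and array. Per the labels' protocols, RNA was extracted with Trizol, amplified from very small inputs (WT-Ovation Pico), labelled with biotin and hybridised. How background was corrected and probes were summarised and normalized is not given in the sources used here. Array medians lay between 6.47 and 6.50, so the arrays appear already aligned, and they were used without further scaling. Amplification adds noise, and the number of arrays limits the precision.

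Probe sets annotated to 1 gene (34945 of 45101) were named through GEO's platform annotation, updated by gene identifier from RefSeq, and each gene was represented by its probe set of highest mean, with no filter on dim genes. Background was the 95th percentile of 27 bacterial control probe sets. Mutant and wild-type arrays were compared, with no covariate, by limma (version 3.58.1, under R 4.3.3; two-sided moderated test), with Benjamini-Hochberg adjustment over 18193 genes, or 34945 probe sets where stated, and a threshold of 0.05. The fit was tested on simulated data. With 3 arrays a group, the smallest p of an exact permutation test of group labels is 0.1.

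The genes and lists were chosen with earlier results of these data known. Named from each further list were the 5 genes with the smallest p, and beside Aldh1a2 and Cyp26a1 the 3 nearest profiles. Marker genes, Hoxb4 and Hoxa5 were named after their values were seen, as was the comparison of array 1 with the rest. Alternatives were the replicate number as a block, other scalings, filters, priors, weights, probe set rules, a stricter threshold, and each array left out in turn.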

Additional observations from a re-analysis of the deposited data

How the results depend on the processing

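None of the retinoid genes, the other retinoid pathway genes or the responsive genes passed under any of the 15 alternatives run (Aldh1a1, Adh1, Rdh16, Rxrg and Cdx1, among the genes named, were not tested without the dimmest 40%). Rdh10, Dhrs3, Cyp26a1, Cyp26b1, Rarg and Crabp1 kept their direction in the 14 alternatives that give a difference, with adjusted p from 0.137 to 0.595 for Rdh10 and from 0.107 to 0.825 for Dhrs3. Rara turned to −0.00137 with quantile normalization. With an array left out, Rara ran from −0.0821 to 0.113, Aldh1a1 from −0.166 to 0.520, Aldh1a2 from −1.05 to 0.378 and Rarb from −0.560 to 0.105, the last 2 above 0 without mutant replicate 1 alone. Ctnnb1, at −0.00 over all arrays, gave 0.00368 with array weights, 0.0465 with the most variable probe set, 0.0594 with the mean of all probe sets, and −0.0166 to 0.0192 with an array left out.

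The 12 genes called over the whole array became 0 with the replicate number as a block and at a threshold of 0.01, 6 with arrays centred on their medians, 1 with the most variable probe set and 1 with the mean of all probe sets. Leaving out an array gave 0 to 92, the highest without mutant replicate 1. The 8 probe sets called became 1 with the replicate block, 0 with quantile normalization and at 0.01, 14 without the dimmest 40%, 16 with a trended robust prior and 13 with array weights, and 0 to 100 without an array. The cause was not tested. The correlation across genes of same-numbered arrays' deviations from their group means was 0.108 for number 1, −0.0751 for number 2 and −0.0161 for number 3, so the numbers were not taken to pair the arrays. With the block, the smallest adjusted p of the 10 genes was 0.234, for Cyp26b1. The rank correlations among Aldh1a2, Rarb and Crabp1, and of Aldh1a2 with Cyp26b1, kept their sign under both rescalings, which were added for them after seeing the data.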
